A study of Mus musculus with 3 samples.

Results

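The small heat shock proteins are low-molecular-weight chaperones that share an alpha-crystallin domain, hold unfolding proteins in solution without using ATP, and pass them on to the larger chaperones. Several members of the family are abundant in muscle, where they sit on actin, desmin and the Z-disc, and the co-chaperone BAG3 joins some of them to HSP70 for the removal of damaged filament proteins. Here the 7 family genes Hspb1, Hspb2, Hspb3, Hspb6, Hspb7, Hspb8 and Cryab (the gene of alphaB-crystallin, also called HSPB5) and their partner gene Bag3 were described. They were taken by symbol from 35562 genes, and all 8 genes were found.

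The libraries came from 3 lines of cultured myoblasts, numbered 66, 67 and 72. Myoblasts are the dividing offspring of satellite cells, which renew adult skeletal muscle. All 3 lines had the genotype Dmdmdx; Pax7-nGFP, that is the mdx mutation of the dystrophin gene and a green reporter driven by Pax7 sequences, and all carried the CRISPR/Cas9 correction of that mutation. They were grown from flow-sorted satellite cells of mouse-mouse chimeras made by injecting the edited induced pluripotent stem cells into host blastocysts. The labels do not tie a line to its chimera, to the age of that animal or to tamoxifen treatment, and the lines therefore count as 1 condition with n = 3. No control library was analysed here, and whether a line is a clone or a mixed culture is not stated. A p-value or SD therefore measures the spread between these lines only. In bulk RNA of this kind, fewer cells with a transcript and less transcript per cell cannot be told apart.

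Levels are in TPM, a transcript abundance that is corrected for length and sums to 1000000 in each library. The libraries held 73274315, 66972426 and 70272367 estimated counts for lines 66, 67 and 72. The myoblast label was checked on Pax7, Myf5, Myod1, Itga7, Cdh15 and Chrna1, and all 6 genes were at 10 TPM or more in every line. So were 11 of 13 genes of differentiated muscle, all 6 genes of dividing cells and 31.5% of all detected genes. The check therefore does not tell myoblasts from cultures that have begun to differentiate. Of 6 markers of heart muscle, a tissue in which several small heat shock genes are strongly expressed, 4 had at most 3 counts in every line, and so did 3 of 6 markers of the eye lens, the classical site of the crystallins. A count of 0 allows up to 3 counts, and these limits cover counting error only.

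The gene starts are shown first, because the family is known as a target of heat shock factors. These factors bind short blocks with the letters GAA or TTC that alternate in direction. Windows from 250 bases before to 50 bases after the start (RefSeq, GRCm38.p6) were held for 6 of the 8 genes, with 7 windows in all because Hspb6 has 2. There was no entry for Cryab and Hspb2. The letters GAANNTTC, which read the same on both strands, were found in 5 of the 7 windows, those of Hspb1, Hspb3, Hspb6, Hspb8 and Bag3, and in 7.86% of all 32851 windows. Hspb1 had 2 such sites, and 0.344% of all windows had 2 or more. The exact letters GAAGTTTC, picked out after the sites had been seen and searched on both strands, were in 4 of the 7 windows and in 1.21% of all windows. In the lines that follow, the 160 bases that end 10 bases into the transcript are given for the genes with such a site in that stretch, and capitals mark GAANNTTC.
Hspb1 (chr5:135887769-135887928, plus strand): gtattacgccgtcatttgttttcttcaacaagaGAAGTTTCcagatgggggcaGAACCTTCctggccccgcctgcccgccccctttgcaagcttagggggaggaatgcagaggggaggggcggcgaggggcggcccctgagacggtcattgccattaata
Hspb6 (chr7:30553151-30553310, plus strand): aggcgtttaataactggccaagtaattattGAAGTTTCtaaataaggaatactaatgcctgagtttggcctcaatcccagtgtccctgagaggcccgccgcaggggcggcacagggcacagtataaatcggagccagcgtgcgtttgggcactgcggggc
Hspb8 (chr5:116422855-116423014, minus strand): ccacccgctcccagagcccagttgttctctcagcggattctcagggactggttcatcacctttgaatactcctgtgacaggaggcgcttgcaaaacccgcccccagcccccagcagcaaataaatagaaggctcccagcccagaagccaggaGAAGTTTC

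With the first transcribed base counted as 1, the sites began at -117 and -97 in Hspb1, at -120 in Hspb6 and at 3 in Hspb8. Those of Bag3, at 43, and of Hspb3, at -224, lie outside the stretch printed. GAANNTTC followed directly by NNGAA, a run of 3 alternating blocks that was searched on both strands, was in none of the 7 windows and in 0.603% of all windows. TTCNNGAA, which also reads the same on both strands, was in none of the 7 and in 8.52% of all windows. The E-box letters CANNTG, which myogenic factors such as MyoD bind, were found in 4 of the 7 windows (those of Hspb1, Hspb3, Hspb7 and Hspb8) and in 72.3% of all windows. A match is a description of letters and not of a bound site.

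The coding sequences were compared to see how close the 7 family genes are to each other. For each pair, the stretch of 60 bases with the most identical bases and no gap was taken from the coding sequence of the leading transcript. Hspb1 and Cryab were the closest pair, with 49 of 60 bases identical, against a median of 38 and a range of 33 to 49 over the 21 pairs in the family. Bag3, which has no alpha-crystallin domain, gave between 31 and 37 with the 7 family genes, a range that overlaps that of the family pairs. The stretch of the closest pair is printed here from coding base 357 of Hspb1 and coding base 285 of Cryab (GENCODE M21), with identical bases in capitals.
Hspb1: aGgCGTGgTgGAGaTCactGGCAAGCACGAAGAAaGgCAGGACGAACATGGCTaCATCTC
Cryab: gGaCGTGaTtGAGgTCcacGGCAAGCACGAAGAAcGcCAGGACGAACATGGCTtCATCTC

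Every 31-base word of 7 genes occurred in no other listed gene on the same strand, and for Hspb7 this held for 99.0% of its words. The summed counts of the same 7 genes were whole numbers to within 0.1 counts in every line. Hspb7 was the exception, with 341.1 counts in line 66.

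Cryab and Hspb1 stood above the other family genes in every line. Together they held between 65.7% and 73.7% of the summed TPM of the 8 genes. The sum was 743 TPM in line 66, 913 TPM in line 67 and 825 TPM in line 72 (827 ± 85.1 TPM, SD, n = 3), which is between 0.0743% and 0.0913% of a library. The genes spanned 2 orders of abundance, down to Hspb7 and Hspb3 at a few TPM, and 6 of the 8 were at 10 TPM or more in every line, as were 31.5% of the 25510 genes detected in any line. The median of the 8 genes on the log2(TPM + 1) scale was 5.32, 6.05 and 5.70 in lines 66, 67 and 72, beside 0.89, 0.85 and 0.91 for all detected genes.

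**Figure D1:**
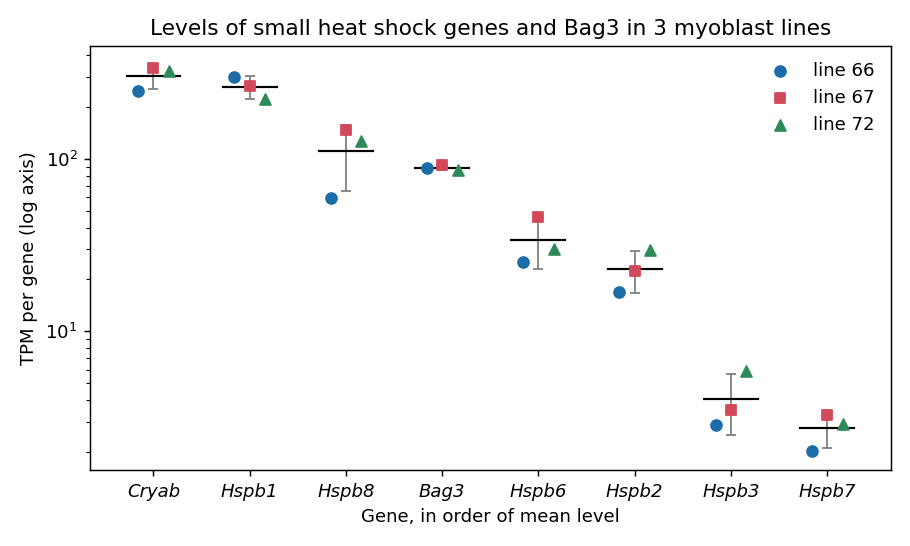
TPM per gene on a log axis for the 8 genes, in order of their mean, with a symbol for each of the 3 lines, a horizontal bar at the mean and whiskers of 1 SD (n = 3). Cryab and Hspb1 lie above 200 TPM in every line, Hspb3 and Hspb7 lie below 6 TPM, and line 66 is far below the other lines for Hspb8.

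Cryab encodes alphaB-crystallin, which binds desmin and is a cause of desmin-related myopathy when mutated. It had 248 TPM in line 66, 336 TPM in line 67 and 321 TPM in line 72 (302 ± 47.2 TPM, SD, n = 3), and its mean was above that of 98.1% of detected genes. Hspb1 encodes the mouse HSP25 (HSP27 in human), an actin-binding chaperone controlled by phosphorylation. It had 299.6 TPM in line 66, 263 TPM in line 67 and 222 TPM in line 72 (262 ± 38.9 TPM, SD, n = 3). Line 66 had the lowest Cryab and the highest Hspb1, whereas both genes were lower in line 72 than in line 67. In TPM, Hspb1 had 1.21 times the level of Cryab in line 66 but 0.784 and 0.690 times its level in lines 67 and 72.

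Hspb8 encodes HSP22, the family member that binds BAG3 most stably. It had 59.2 TPM in line 66, 147 TPM in line 67 and 128 TPM in line 72 (111 ± 46.0 TPM, SD, n = 3). Bag3 had 89.0 TPM in line 66, 91.7 TPM in line 67 and 86.2 TPM in line 72 (89.0 ± 2.74 TPM, SD, n = 3). Bag3 was thus nearly level, whereas Hspb8 was low in line 66 alone. The ratio of Bag3 to Hspb8 in TPM was 1.503 in line 66 and 0.625 and 0.675 in lines 67 and 72, so that the partner genes changed places between line 66 and the others.

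Hspb6 encodes HSP20, a chaperone of striated and smooth muscle that is phosphorylated through cyclic AMP. It had 25.4 TPM in line 66, 46.0 TPM in line 67 and 30.0 TPM in line 72 (33.8 ± 10.9 TPM, SD, n = 3). Hspb2, which encodes the muscle protein that binds the myotonic dystrophy kinase, had 17.0 TPM in line 66, 22.4 TPM in line 67 and 29.6 TPM in line 72 (23.0 ± 6.36 TPM, SD, n = 3). Line 67 was the highest for Hspb6 and line 72 for Hspb2, and line 66 was the lowest for both.

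Hspb3 and Hspb7 were low. Hspb3, whose protein forms a complex with HSPB2 in muscle, had 2.86 TPM in line 66, 3.52 TPM in line 67 and 5.86 TPM in line 72 (4.08 ± 1.58 TPM, SD, n = 3). These values rest on 82, 92 and 157 counts, with exact 95% Poisson intervals of 65.2 to 102, 74.2 to 113 and 133 to 184, so that only the count of line 72 stood apart beyond counting error. Hspb7, the cardiovascular family member, had 2.03 TPM in line 66, 3.28 TPM in line 67 and 2.91 TPM in line 72 (2.74 ± 0.643 TPM, SD, n = 3). Its counts were 341.1, 514.9 and 476.0, with intervals of 306 to 379, 471 to 561 and 434 to 521, so that the count of line 66 lay below both others.

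The order of the 8 genes by mean level was Cryab, Hspb1, Hspb8, Bag3, Hspb6, Hspb2, Hspb3 and Hspb7. Of the 7 neighbouring pairs in this order, 5 had the same direction in all 3 lines and 2 changed direction. Those that changed were Cryab over Hspb1, with a difference in log2(TPM + 1) of 0.20 ± 0.42, and Hspb8 over Bag3, with 0.22 ± 0.69 (SD, n = 3 each), so neither order was larger than the spread between lines. Hspb6 was above Hspb2 by 0.53 ± 0.50 and Hspb3 above Hspb7 by 0.41 ± 0.37 (SD, n = 3 each), with differences down to 0.02 in line 72 and 0.08 in line 67. Hspb1 was above Hspb8 by 1.32 ± 0.87 (SD, n = 3), a mean that rests on line 66, with 2.32 there but 0.84 and 0.79 in lines 67 and 72. Larger mean steps were Bag3 over Hspb6 (1.41 ± 0.40) and Hspb2 over Hspb3 (2.25 ± 0.11, SD, n = 3 each). For each of the 5 pairs with 1 direction the exact sign-flip test over lines gave a two-sided p = 0.25, adjusted p = 0.35 over the 7 pairs, and 0.25 is the smallest p that 3 lines allow. No pair can pass a threshold of 0.05 in this design.

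The lines were compared next, with 1 library each and hence without a test. A gene was counted as different where the highest line was more than 2-fold above the lowest, among the 8428 genes that averaged 10 TPM or more. Of the 6 small heat shock and Bag3 genes that passed this filter, 1 was over 2-fold apart, namely Hspb8, against 2.47% of all genes. The ratio for Hspb8 was 2.48, larger than that of 98.7% of the genes. It was also more than 2-fold below both other lines in line 66, as were 0.214% of all genes, and it differed by more than 2-fold between lines 66 and 67 (1.36% of all genes) and between lines 66 and 72 (1.47%). None of the 6 differed by more than 2-fold between lines 67 and 72, as 1.09% of all genes did. Likewise none of the 6 was more than 2-fold above both other lines in line 66 (0.451% of all genes), below or above them in line 67 (0.249% and 0.131%), or below or above them in line 72 (0.237% and 0.178%). Without line 66 the ratio was 1.15. The genes of chromosome 5, which holds Hspb8 and Hspb1, were shifted by a median of -0.01 (log2) in line 66 against the mean of the other lines, after centring on all genes, and no chromosome that holds any of the 8 genes was shifted by more than 0.08 in any line.

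The other ratios were 1.82 for Hspb6, 1.75 for Hspb2, 1.36 for Cryab and 1.35 for Hspb1, beside a median of 1.18 over all genes, and 3 of 6 passed 1.5-fold (9.79% of all genes). The ratio of Hspb6 rests on line 67, with 46.0 TPM there beside 25.4 and 30.0 TPM in lines 66 and 72. Bag3 had a ratio of 1.06, with a smaller ratio in only 10.7% of the genes. Hspb3 had a ratio of 2.05 but fell under the filter. The SD of TPM as a share of the mean was 3.08% for Bag3, 41.4% for Hspb8 and 38.7% for Hspb3. The biological coefficient of variation of edgeR estimates the relative spread between lines beyond counting noise, with each value drawn toward genes of like level. It is thus not the spread of a gene alone. On this scale the genes ran from 0.0967 for Bag3 to 0.316 for Hspb8 and 0.327 for Hspb3. The median over 15654 genes was 0.177. Hspb1 (0.148) and Cryab (0.144) were under that median, and Hspb6 (0.239), Hspb2 (0.241) and Hspb7 (0.257) over it. Without line 66 the coefficient of Hspb8 was 0.106 and that of Cryab 0.0878, which was then below that of Bag3 (0.0928).

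**Figure D2:**
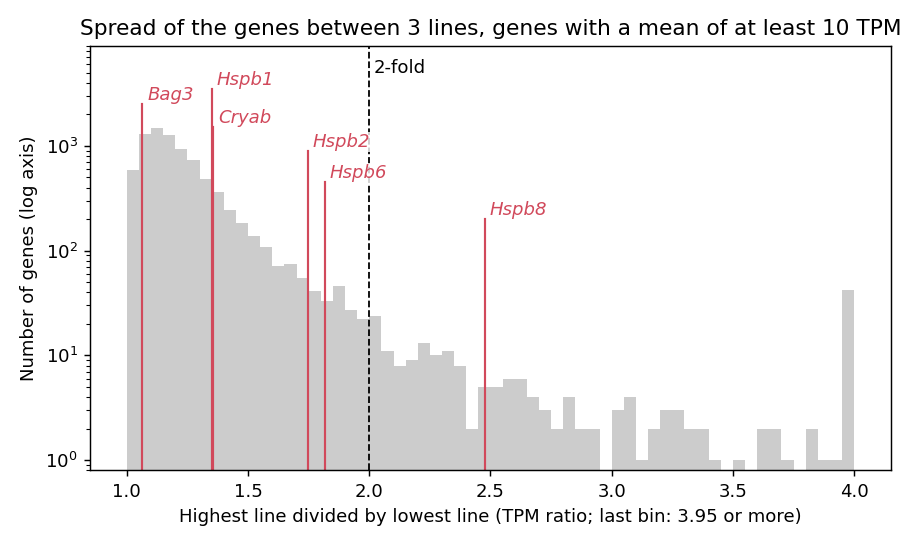
Histogram of the ratio of the highest to the lowest line in TPM over 8428 genes that averaged 10 TPM or more (number of genes on a log axis), with red lines, of heights set for legibility only, for the 6 small heat shock and Bag3 genes that pass this filter and a dashed line at 2-fold. Hspb8, at 2.48, is the only one of the 6 past the dashed line, and Bag3, at 1.06, is near the lower end.

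Line 66 was the lowest line for 4 of the 6 genes that averaged 10 TPM or more (Cryab, Hspb2, Hspb6 and Hspb8), where 47.7% of the 8428 genes were also lowest in line 66. At an average of 1 TPM or more it was the lowest for 6 of 8 genes, with a background of 44.2% of 12528 genes. Hspb2 and Hspb3, whose proteins act together, both had the order 66 below 67 below 72, an order shared by 27.0% of the 12528 genes and by 29.4% of the 8428. For Hspb3, however, the counts of lines 66 and 67 lay within counting error of each other. For Hspb2 the intervals of the counts, unscaled for library size, overlapped slightly, at 484 to 575 in line 66 and 565 to 664 in line 67. The order 66 below 72 below 67 was that of Cryab, Hspb6, Hspb7 and Hspb8, with a background of 17.2% of the 12528 and 18.4% of the 8428 genes, and for Hspb7 the count intervals of lines 67 and 72 overlapped. Hspb1 alone was highest in line 66.

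Genes of differentiated muscle had the same order of lines as Hspb2. Of 13 such genes, among them Myog, the factor that starts differentiation, 12 had the order 66 below 67 below 72 and all 13 were lowest in line 66. Their summed level was 1950.2, 2749 and 3569 TPM in lines 66, 67 and 72, and their median log2(TPM + 1) was 7.40, 7.80 and 8.28. Myog had 168, 222 and 310 TPM in these lines, and 4 of the 12 genes that averaged 10 TPM or more were over 2-fold apart, beside 2.47% of all genes. The 6 genes of dividing cells were also lowest in line 66, with a sum of 765 TPM beside 995 and 991 TPM in lines 67 and 72. The part of these lists in the levels of the small heat shock genes was not tested.

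**Figure D3:**
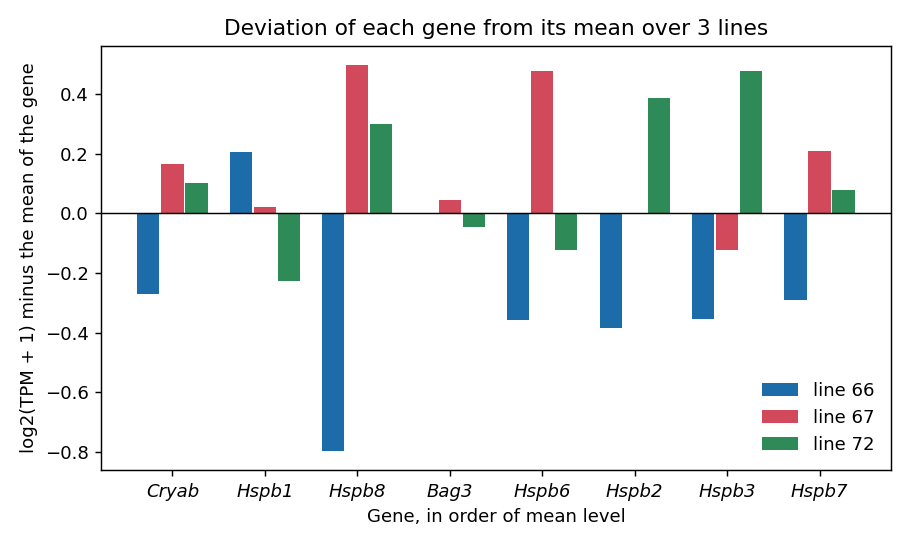
Deviation of log2(TPM + 1) from the mean of each gene, as a bar for each of the 3 lines, for the 8 genes in order of mean level. Line 66 has the longest negative bar for Hspb8, line 72 has the longest positive bars for Hspb2 and Hspb3, and the bars of Bag3 are close to 0.

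Because Hspb8 had the widest range between lines of the genes above 10 TPM, its pattern was set against all others. The measure was the largest difference, over the 3 lines, between the deviations of 2 genes from their own mean in log2(TPM + 1). The nearest of 8427 genes were Meg3 (64.6, 153 and 118 TPM in lines 66, 67 and 72, difference 0.14), Aqp5 (8.52, 21.3 and 22.1 TPM, difference 0.14) and Tns1 (10.2, 23.4 and 19.0 TPM, difference 0.15). No gene lay within 0.1 of Hspb8, whereas between 22 (Hspb6) and 2128 (Bag3) did for the other genes above 10 TPM. With 3 lines, likeness of this kind is weak.

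The listed transcripts showed which form carried each level. The leading transcript was the same in all 3 lines for each of the 8 genes. Bag3, Hspb3 and Hspb7 have 1 listed transcript each, and the leading form held 99.5% ± 0.194 of the TPM of Hspb1, 99.8% ± 0.169 of Hspb8 and 94.4% ± 2.13 of Hspb6 (SD, n = 3 each). In Cryab the leading transcript, ENSMUST00000216755, held 80.2%, 82.4% and 83.8% in lines 66, 67 and 72. Of the 5 others of Cryab, ENSMUST00000034562 held 9.17% ± 1.06 and ENSMUST00000214609 held 6.37% ± 2.74 (SD, n = 3 each), and the form that keeps an intron held at most 2.74%. ENSMUST00000214962 was listed at under 0.1 counts in lines 66 and 67 and at 152 counts (1.30% of the TPM) in line 72. Hspb2 was the most divided: ENSMUST00000042790 held 68.4%, 55.0% and 61.6% and ENSMUST00000217159 held 31.6%, 45.0% and 38.4% in lines 66, 67 and 72.

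**Figure D4:**
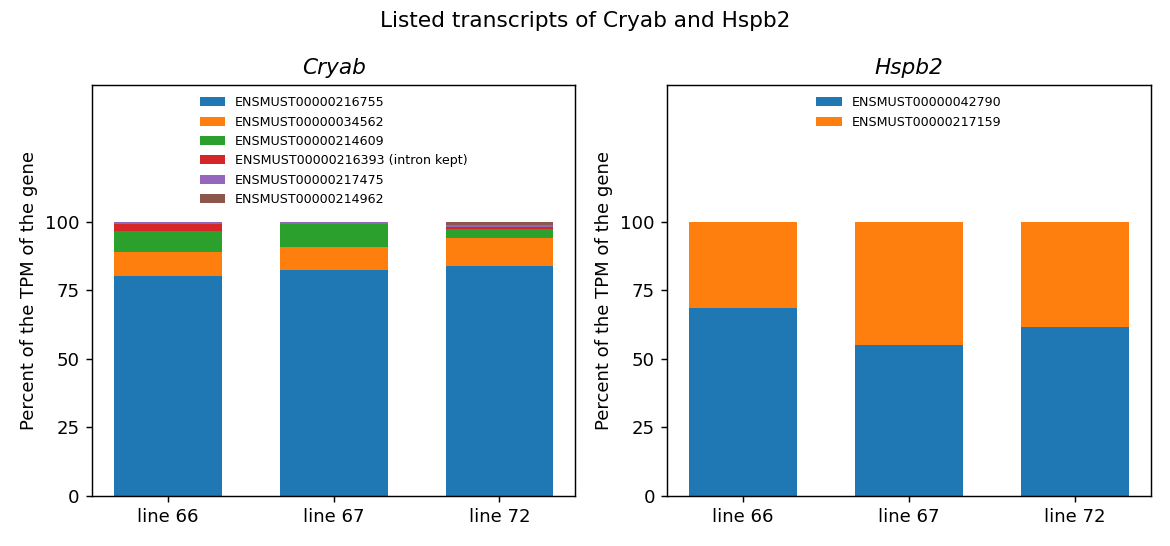
Percent of the TPM of Cryab (left) and Hspb2 (right) in each listed transcript, as stacked bars that start at 0 for each of the 3 lines. A single form holds over 80% of Cryab in every line, whereas the 2 forms of Hspb2 hold between 31.6% and 68.4%.

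Cryab and Hspb2 lie head to head on chromosome 9 (GRCm38), Cryab from 50751325 to 50756636 on the plus strand and Hspb2 from 50751078 to 50752354 on the minus strand. The leading transcripts start 727 bases apart (50753020 and 50752293), run away from each other and share no exonic base. A longer Cryab transcript, ENSMUST00000217475, starts inside Hspb2 and shares 252 exonic bases with it on the opposite strand, so that 26.7% of the 31-base words of Hspb2 also occur in Cryab when both strands are read. This transcript held between 0.512% and 0.959% of the TPM of Cryab. The strand setting of the counting is not given in the sources used here. Reads assigned to both genes would be split into fractions, and the summed counts of Cryab and of Hspb2 were whole to within 0.1 counts in every line. Cryab had 9016, 11445 and 11638 counts and Hspb2 had 528, 613 and 850 counts in lines 66, 67 and 72. The ratio of Hspb2 to Cryab in TPM was between 0.0666 and 0.0922, and line 67 was the highest for Cryab but not for Hspb2.

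The other genes lie apart from each other. Hspb1 (135887919 to 135889563) and Hspb8 (116408491 to 116422864) are on chromosome 5, Hspb6 (30552178 to 30555443) and Bag3 (128523616 to 128546981) on chromosome 7, Hspb3 (113662896 to 113663676) on chromosome 13 and Hspb7 (141420779 to 141425311) on chromosome 4. In Hspb1, 41.9% of the 31-base words occur in reverse in Gm9817 on chromosome 13, which had at most 23.2 counts in any line, beside at least 9172 for Hspb1. Hspb6 overlaps Proser3 and Lin37, which lie on the minus strand. Of the words of Hspb6, 4.02% occur in reverse in Proser3, which had 636 to 720 counts, beside 1854 to 3087 for Hspb6. For Hspb1, Bag3 and Hspb8, the nearest coding genes along the chromosome are given with their mean level over the 3 lines. Hspb1 lies between Srrm3 (0.184 TPM) and Ywhag (263 TPM, close to the level of Hspb1). Bag3 lies between Tial1 (121 TPM) and Inpp5f (23.5 TPM), and Hspb8 between Ccdc60 (0.0670 TPM) and Srrm4 (2.09 TPM).

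The remaining family genes were nearly silent except Hspb11. In every line Cryaa, the alphaA-crystallin of the lens, had a count of 0, and the testis genes Hspb9 and Odf1 had at most 2 counts. Hspb11, now counted as a protein of the cilium, had 45.2, 38.0 and 41.2 TPM in lines 66, 67 and 72 (41.4 ± 3.62 TPM, SD, n = 3). In Cryaa the limit of 3 counts means at most 0.0448 CPM, that is counts scaled to 1000000 per library, in any line.

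The BAG family and the partners of BAG3 were widely present. Of 15 such genes, 13 (86.7%) were at 10 TPM or more in every line, and none of the 13 was over 2-fold apart between lines, beside 2.47% of all genes. Hspa8, the constitutive HSP70 to which BAG3 binds, had 5390.2 ± 98.6 TPM, Stub1, the ubiquitin ligase CHIP, 119.6 ± 6.59 TPM, and Sqstm1, the autophagy receptor p62, 505 ± 70.1 TPM (SD, n = 3 each). The exceptions were the stress-inducible HSP70 genes, Hspa1a with 1.44 ± 0.351 TPM and Hspa1b with 3.97 ± 0.226 TPM (SD, n = 3 each), which are near-identical copies whose reads can be split wrongly between them. Synpo2, an adaptor of BAG3 at the Z-disc, had 11.0, 12.9 and 15.4 TPM in lines 66, 67 and 72.

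Heat shock factors and the large chaperones were nearly all present. Of 13 genes, 12 (92.3%) were at 10 TPM or more in every line, and the largest ratio between lines among the 12 was 1.63 (Hspa4l). None of the 12 was over 2-fold apart, beside 2.47% of all genes. Hsf1, the main heat shock factor, had 72.4 ± 3.68 TPM and Hsf2 43.0 ± 3.89 TPM, whereas Hsf4, the factor of the lens, had 1.41 ± 0.545 TPM (SD, n = 3 each) and, below the filter, a ratio of 2.12. Hsph1, a chaperone that rises sharply upon heat shock in many cells, had 199 ± 3.35 TPM. Dnajb1, which was counted above with the partners of BAG3 and not among these 13, had 22.3 ± 2.06 TPM (SD, n = 3 each).

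Markers of other cells that use small heat shock genes were mixed. Of 7 genes of smooth muscle and pericytes, 4 were at 10 TPM or more in every line (Acta2, Tagln, Smtn and Rgs5), and Myh11, the defining smooth muscle myosin, was at 0.0403 ± 0.0134 TPM (SD, n = 3). Of these 4 genes, 3 were over 2-fold apart between lines, beside 2.47% of all genes. Acta2 (209, 292 and 581 TPM in lines 66, 67 and 72) and Tagln (a ratio of 2.08) were highest in line 72, and Rgs5 (356, 137 and 172 TPM) was highest in line 66. The summed level of the list was 670.1, 517 and 907 TPM in lines 66, 67 and 72, with line 67, the highest for Hspb6, the lowest for this list. Of 7 fibroblast genes, 1 was at 10 TPM or more in every line (Col3a1) and Lum was at 0 counts throughout, and the summed level was 157, 239 and 311 TPM in lines 66, 67 and 72. That sum was carried by Col3a1 (145, 205 and 270 TPM) and Col1a2 (7.47, 28.3 and 37.0 TPM), the 2 of 7 genes that were lowest in line 66, whereas the median log2(TPM + 1) of the list was 0.54, 0.46 and 0.47, and Col1a1, Pdgfra and Dcn were highest in line 66. Col1a2 was, like Hspb8, more than 2-fold below both other lines in line 66. The sum of the 6 lens markers was at most 7.19 TPM, that of the 6 heart markers at most 3.68 TPM and that of 5 immune and endothelial markers at most 5.17 TPM in any line. According to the paper, the myoblasts had been purified by flow cytometry. Which cells the transcripts of these lists came from was not tested, nor was their part in the levels of the small heat shock genes.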

How the data were processed

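The authors deposited, per transcript and line, an estimated count, in which reads that fit several transcripts are split, and a TPM value, scaled by the authors to 1000000 per library from count and effective length. The submitters' processing notes name bcl2fastq 2.20, fastp 0.20, kallisto 0.46.1 and GRCm39; the annotation release and strand setting are not given in the sources used here. Transcripts were matched by identifier to GENCODE M21 on GRCm38 (120686 of 121798, 99.1%), another build than the one named, which gave all gene coordinates; no transcript of the 8 genes differed in length. Unmatched transcripts held at most 0.535% of counts. TPM and counts were summed per gene.

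The 8 genes and the lists were chosen with earlier results of these data known. Named are the 8 genes, genes of the lists, the nearest coding genes and, for the gene with the widest range, the 3 most alike. Neighbours in level were compared with an exact sign-flip test (Benjamini-Hochberg over 7 pairs). Spread came from an intercept-only edgeR fit on counts rounded to whole numbers, without a test. The fit was first checked on data simulated with the same coefficient of variation for all genes. That setting checks their common value and not the values of single genes. The planned comparison of proteins was not made, and coding sequences were compared in its place. Alternatives were CPM, TMM and DESeq2 scaling, coding transcripts only, a pseudocount of 0.1 in place of 1, other filters and a fold of 1.5, and each line left out. R 4.3.3 ran edgeR 4.0.16 and, for its size factors, DESeq2 1.42.0, and the rest was computed in Python 3.11.15 with scipy 1.17.1, numpy 2.4.6 and pandas 2.3.3 and drawn with matplotlib 3.10.9.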

Additional observations from a re-analysis of the deposited data

How the results depend on the processing

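With CPM, which does not correct for length, the median level of the 8 genes was 88.8 in place of 61.4 and their sum 675 in place of 827. At a fold of 1.5, 3 of 6 genes passed, beside 9.79% of all genes. Counts under lower filters have no such background, because the 2-fold share of all genes was taken at 10 TPM only. The number of genes over 2-fold apart was 2 in place of 1 with a mean of at least 1 TPM. It was also 2 with no filter, and Hspb3 is the gene that enters in both cases. With each line left out in turn, it was between 0 and 1, with 0 without line 66, the median coefficient of variation was between 0.156 and 0.242 (0.240 with all lines), the median level between 57.6 and 63.5 TPM, the sum between 784 and 869 TPM, and the neighbouring pairs with 1 direction in every line between 5 and 7 of 7. With all lines, 5 such pairs were found, against 4 with CPM and 4 with coding transcripts only, each in its own order of mean level. With CPM that order was Bag3 (170.3), Hspb1 (156), Cryab (153), Hspb8 (144), Hspb6, Hspb2, Hspb7 (6.37) and Hspb3 (1.58), so that 3 neighbouring pairs turned. TMM and DESeq2 scaling left the ratio of Hspb8 at 2.47. Of 128 values of single genes and lists under an alternative, 22 moved by more than the spread between lines or across the fold threshold, 16 of them with CPM, 5 with the pseudocount of 0.1 and 1 without line 66. No paired analysis was possible because all 3 lines belong to 1 condition. Counting error is widest for Hspb3, with 82 counts in line 66.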

Other observations

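The kinases that act on small heat shock proteins were all present. Mapk14 (p38 alpha, 45.4 ± 8.26 TPM) and its target kinases Mapkapk2 (74.7 ± 9.41 TPM), Mapkapk3 (21.6 ± 4.38 TPM) and Mapkapk5 (68.9 ± 2.66 TPM), known for the phosphorylation of HSPB1, were at 10 TPM or more in every line, as was Prkaca (177 ± 19.1 TPM), the catalytic subunit of protein kinase A (SD, n = 3 each). Dmpk, the myotonic dystrophy kinase bound by HSPB2, was the highest of the 6 genes, with 699, 774 and 604 TPM in lines 66, 67 and 72. None of the 6 was over 2-fold apart between lines, beside 2.47% of all genes.

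Among 7 cytoskeletal clients, Vim (vimentin) was the highest at 7993 ± 755 TPM, and Des (desmin) had 494 ± 15.0 TPM and Flnc, the filamin handled by BAG3, 152 ± 17.2 TPM (SD, n = 3 each). Of the 7 clients 1 was over 2-fold apart, beside 2.47% of all genes, namely Actn2, the Z-disc alpha-actinin, with 30.5, 52.0 and 65.5 TPM in lines 66, 67 and 72.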
